A study of Homo sapiens with 12 samples.

Results

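The expression of 10 genes of bone morphogenetic protein (BMP) signalling was examined in medulloblastoma (MB) cells cultured in astrocyte-conditioned medium (ACM). The genes were the targets ID1, ID2, ID3 and ID4, the inhibitors SMAD6 and BAMBI, the ligands BMP2, BMP4 and BMP7 and the antagonist GREM1. They were chosen by name, and their probes were found through the RefSeq accession of each probe, which gave 14 probes for the 10 genes, out of 25270 genes that passed a filter on dim probes. Each gene was read through its brightest probe, which was well above background on all 12 arrays for all 10 genes. Daoy (HTB-186), an established human MB cell line, was kept either in ACM or in DMEM, over a single passage of 48 h (P1) or over 3 such passages (P3). The ACM was the supernatant of astrocytes taken from the hippocampi of Sprague Dawley rats aged 1 to 2 days, and the DMEM held 10% fetal bovine serum and an antibiotic antimycotic mix, the serum being in the medium of the astrocytes too. RNA of 3 cultures for each medium and passage, described as independent experiments of this cell line, was labelled with Cy3 and read on 12 single-colour arrays. In RNA from whole cultures, fewer cells of a kind and less RNA per cell cannot be told apart.

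BMP ligands are secreted proteins that bind pairs of type I and type II receptor kinases, which phosphorylate SMAD1, SMAD5 and SMAD9. With SMAD4 these SMADs enter the nucleus and bind GC-rich elements and SMAD boxes of their targets, of which the ID genes are the best known. ID proteins lack a DNA-binding region and hold E proteins away from DNA, which delays differentiation in many lineages. SMAD6 and BAMBI are induced by the pathway and dampen it, SMAD6 inside the cell and BAMBI as a receptor-like protein without a kinase, while GREM1 is secreted and traps BMP2, BMP4 and BMP7. In the cerebellum BMPs are known to oppose the proliferation of granule cell precursors, the lineage of a subgroup of MB.

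Promoter sequence was available for 8 of the 10 genes (RefSeq, GRCh38.p14), and the 250 bases before the annotated start were searched on both strands. The motifs were GGCGCC, a GC-rich element bound by SMAD1 and SMAD5, GNCGNC followed after 5 bases by GTCT, a composite of such an element with a SMAD box, and TATAAA, the TATA box. GGCGCC was found in 16.4% of all 35116 promoter windows, the composite in 0.607% and TATAAA in 10.7%. The windows of ID1, SMAD6, BAMBI and GREM1 are printed 5′ to 3′ on the strand of the gene because they hold these motifs in a target, both inhibitors and the antagonist, with the motifs in capitals. They lie at chr20:31605039-31605288, chr15:66701986-66702235, chr10:28677271-28677520 and chr15:32717754-32718003, all on the plus strand.
ID1: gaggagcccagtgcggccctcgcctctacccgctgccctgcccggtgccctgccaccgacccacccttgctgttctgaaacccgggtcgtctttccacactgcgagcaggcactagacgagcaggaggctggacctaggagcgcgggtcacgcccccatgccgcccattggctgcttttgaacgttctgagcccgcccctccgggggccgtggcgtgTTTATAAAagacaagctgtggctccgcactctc
SMAD6: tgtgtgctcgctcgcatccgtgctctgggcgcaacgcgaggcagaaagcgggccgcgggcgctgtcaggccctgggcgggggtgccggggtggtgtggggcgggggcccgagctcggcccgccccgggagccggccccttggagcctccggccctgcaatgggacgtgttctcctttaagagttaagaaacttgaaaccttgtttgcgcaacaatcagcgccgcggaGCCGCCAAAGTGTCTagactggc
BAMBI: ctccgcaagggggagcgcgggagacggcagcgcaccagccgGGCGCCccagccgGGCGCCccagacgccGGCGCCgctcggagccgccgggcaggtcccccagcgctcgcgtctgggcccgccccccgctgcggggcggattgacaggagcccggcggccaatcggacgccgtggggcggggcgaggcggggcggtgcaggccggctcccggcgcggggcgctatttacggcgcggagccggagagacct
GREM1: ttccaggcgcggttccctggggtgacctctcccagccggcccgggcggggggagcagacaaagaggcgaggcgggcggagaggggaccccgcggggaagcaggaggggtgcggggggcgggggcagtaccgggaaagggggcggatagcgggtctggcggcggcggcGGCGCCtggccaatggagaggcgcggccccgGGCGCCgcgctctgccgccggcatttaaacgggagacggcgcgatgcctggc
The ID1 window holds TATAAA on both strands, overlapping, the plus-strand copy from -31 to -26 relative to the start. The SMAD6 window holds the composite, its 5-base gap included, from -23 to -9. The BAMBI window holds 3 copies of GGCGCC between -209 and -176 and the GREM1 window, at the first of its annotated starts, 2 copies between -83 and -47. Of the other windows, that of ID4 holds TATAAA and the first window of BMP4 holds GGCGCC, whereas neither the ID2 nor the ID3 window holds any of the motifs. These matches are a description of letters in the windows, since the arrays do not measure binding.

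The labels of the deposited data conflict. The authors deposited the scanner output of each array and a table of normalized log2 values, and each of the 12 columns of that table ranks as the scanner output of another sample. The scanner output was used under its own labels, and values of the table, as that table is labelled, are given where a result rests on them. The 12 arrays were on 3 slides, inferred from shared scans. P1 ACM and P3 ACM replicate 1 shared slide 1, P3 ACM replicates 2 and 3 and P1 DMEM replicates 1 and 2 shared slide 2, and P1 DMEM replicate 3 and P3 DMEM shared slide 3, so no slide held both media at the same passage. Levels are log2 intensities from which the 75th percentile of each array was subtracted, and each belongs to 1 probe, so that levels of different genes are not comparable. The share of probes well above background was 74.3% to 80.4% on slide 2 and 88.1% to 94.6% on the other arrays.

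At P1, none of the 10 genes differed between ACM and DMEM by more than 2-fold with an unadjusted p of at most 0.05, the thresholds of the study, and none reached that p alone through its leading probe, though ID1 did with normexp and quantile normalization (0.37, limma's unadjusted p of 0.0377). Of all 25270 genes, 3439 (13.6%) were past these thresholds, 6066 (24.0%) reached that unadjusted p, and 0 reached an adjusted p of 0.05 in limma, where the smallest was 0.0952. The 10 genes had a median log2 difference of 0.01, beside 0.15 over all genes, and 5 of them were lower in ACM, beside 36.1% of all genes. Quantile normalization moved the median of all genes from 0.15 to 0.00. None (0) of the 10 genes had ACM and DMEM arrays that did not overlap, beside 36.0% of all genes.

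At P3, 1 of the 10 genes, BAMBI, was past the thresholds, 2.51-fold lower in ACM, beside 1.73% of all genes. BAMBI was also the only 1 of the 10 without overlap between the media, beside 9.77% of all genes, and the only one to reach the unadjusted p, beside 7.27%. In 9 of the 10 the mean was lower in ACM, beside 49.6% of all genes, and the median log2 difference of the 10 was -0.41 beside 0.00 over all genes. GREM1 was the member with a higher mean in ACM. In the normalized table as it is labelled, only ID1 (15.80 against 15.87) and GREM1 (12.27 against 12.73) had a lower mean in P3 ACM. All members were read on the same P3 DMEM arrays, all on slide 3, so they are not separate observations. With the replicate number as a block BMP7 and GREM1 reached the unadjusted p as well (0.0407 and 0.0341 in limma). On slide 2, P3 ACM replicates 2 and 3 lay beside P1 DMEM replicates 1 and 2, and passage differed too. There 7 of the 10 members were higher in ACM, without overlap for ID1 (0.39), ID3 (0.14), ID4 (0.77) and BMP2 (0.36). BMP4 was lower in ACM without overlap (-0.83). Shares over all genes were not computed for this slide, so these counts have nothing to be set beside. No gene of the array reached an adjusted p of 0.05 at P3 (0 of 25270, smallest 0.195 in limma), with 1837 that reached the unadjusted p, and the adjusted p of the members ran from 0.66 to 0.848.

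**Figure D1:**
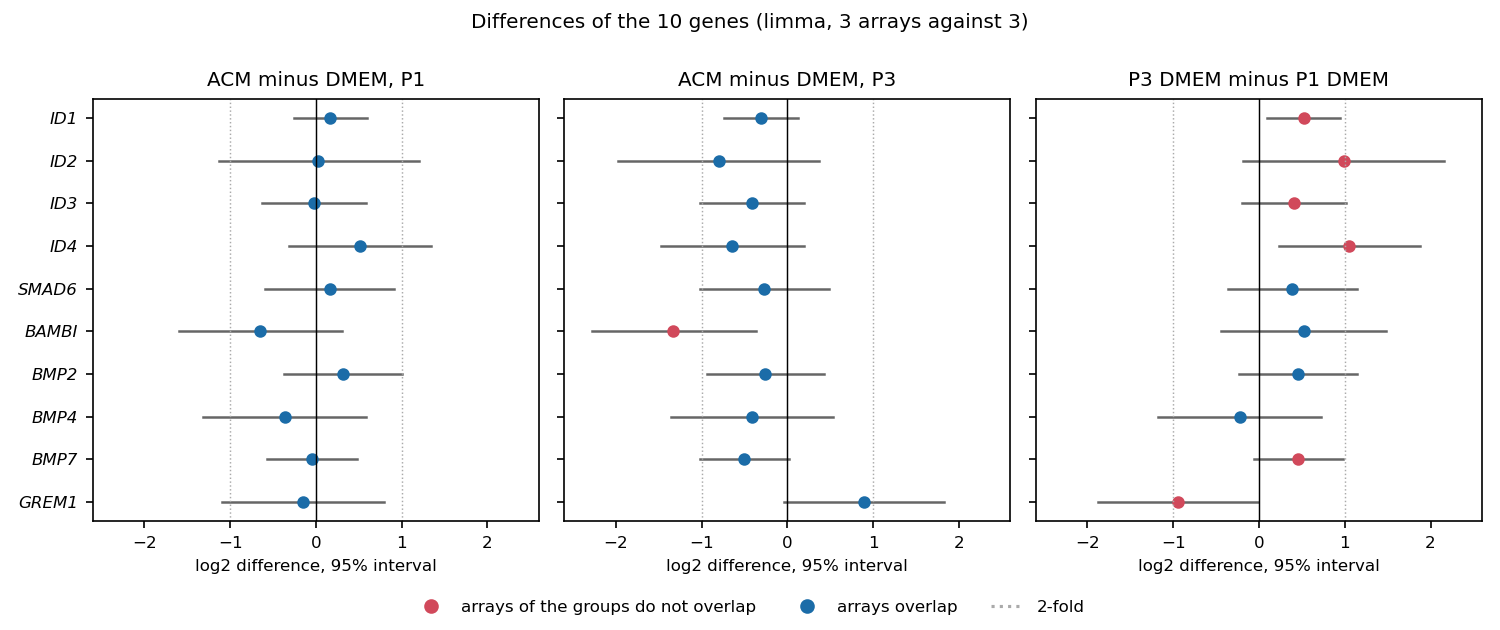
The log2 difference of each gene (x axis) with its 95% interval from limma, for ACM minus DMEM at P1 and at P3 and for P3 DMEM minus P1 DMEM, 3 arrays against 3. Red points mark genes whose arrays did not overlap between the groups: 0 at P1, BAMBI at P3, and 6 genes between the DMEM groups.

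ID1 was at 4.72, 4.40 and 4.94 in the 3 P1 ACM arrays and at 4.47, 4.50 and 4.61 in P1 DMEM, and at 4.46, 4.67 and 5.08 in P3 ACM against 4.99, 5.12 and 5.03 in P3 DMEM. The P3 DMEM arrays were tight (5.05 ± 0.06, SD, n = 3), and P3 ACM replicate 3 lay among them while the other P3 ACM arrays lay below all of them. The difference between ACM and DMEM was 0.16 ± 0.19 (SE) at P1, with a 95% interval of -0.26 to 0.59, and -0.31 ± 0.19 at P3, with an interval of -0.74 to 0.12. Quantile normalization gave 0.30 and -0.07, and slide as a fixed block 0.62 and -0.04. ID1 is the target most used as a readout of BMP signalling, and its whole range over the 12 arrays was 1.64-fold.

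ID2, widely expressed in neural progenitors, ranged more widely, 4.89-fold over the 12 arrays. It was at -0.02, -0.12 and 1.48 in P1 ACM and at 0.35, 0.62 and 0.27 in P1 DMEM. At P3 it was at -0.31, 0.40 and 1.73 in ACM and at 1.19, 1.98 and 1.04 in DMEM. In both passages replicate 3 of ACM stood far above the other ACM arrays, so that the SD of ID2 was 0.90 in P1 ACM and 1.03 in P3 ACM, against 0.18 and 0.51 in DMEM. The difference was 0.03 at P1 (95% interval -1.13 to 1.2) and -0.80 at P3 (-1.97 to 0.37), and without P3 ACM replicate 3 the P3 difference was -1.36, past the thresholds at an unadjusted p of 0.0163 in limma. The second ID2 probe gave 0.15 and -0.73, and slide as a fixed block 1.33 at P1 and -0.55 at P3.

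ID3 was at 2.40, 1.95 and 2.74 in P1 ACM, 2.47, 2.57 and 2.11 in P1 DMEM, 1.83, 2.62 and 2.69 in P3 ACM and 3.01, 2.75 and 2.62 in P3 DMEM. Its levels overlapped between the media at both passages, with differences of -0.02 ± 0.27 (SE) at P1 and -0.41 ± 0.27 at P3. The P1 difference turned to 0.07 after quantile normalization.

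ID4, known for its role in neural stem cells and astrocyte precursors, was at -0.71, -1.28 and 0.12 in P1 ACM against -1.46, -1.26 and -0.69 in P1 DMEM. At P3 it was at -0.99, -0.97 and -0.21 in ACM against -0.48, 0.33 and -0.10 in DMEM. The mean was higher in ACM by 0.51 at P1 (95% interval -0.31 to 1.34) and lower by -0.64 at P3 (-1.47 to 0.19), and the difference between the passages was -1.15 ± 0.53 (SE), with an adjusted p of 0.633 in limma. With slide as a fixed block the differences were 1.14 and 0.17. None (0) of the 10 genes, through its leading probe, passed an unadjusted p of 0.05 for the difference between passages, beside 8.25% of all genes. ID4 came closest with limma's unadjusted p of 0.0526, and with the replicate number as a block it passed.

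BAMBI was at 1.69, 1.26 and 2.93 in P1 ACM and 2.45, 2.40 and 2.97 in P1 DMEM. At P3 it was at 1.07, 1.87 and 2.46 in ACM and 2.82, 3.23 and 3.33 in DMEM, so that every P3 ACM array was below every P3 DMEM array. The means were 1.80 ± 0.70 and 3.13 ± 0.27 (SD, n = 3 each), a difference of -1.33 ± 0.43 (SE) with a 95% interval of -2.28 to -0.37, limma's unadjusted p of 0.0111 and an adjusted p of 0.66. The two-sided exact permutation test gave p = 0.1, the smallest that 3 arrays against 3 allow. At P1 the difference was -0.65 (-1.60 to 0.31), and the difference between passages was -0.68 ± 0.61 (SE), with an adjusted p of 0.869 in limma.

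The BAMBI result at P3 moved with the slide. All P3 DMEM arrays were on slide 3, where BAMBI ran from 2.82 to 3.33, and P1 DMEM replicate 3, on that slide too, was at 2.97, above the P1 DMEM arrays of slide 2. The P3 difference was -0.42 (unadjusted p = 0.569 in limma) with slide as a fixed block and -1.12 (unadjusted p = 0.0644) with slide as a random block. On slide 2 the mean of P3 ACM replicates 2 and 3 was 2.16 and that of P1 DMEM replicates 1 and 2 was 2.43. They overlapped, and these arrays differ in passage as well as in medium. This gap is a part of the fixed-block value and not a separate check. The other part is the 0.16 by which the mean of P3 DMEM exceeded P1 DMEM replicate 3 on slide 3. In the normalized table, as it is labelled, BAMBI was higher in P3 ACM by 0.68 (13.73 ± 0.77 against 13.06 ± 0.92, SD, n = 3 each). Without P3 ACM replicate 1 the difference was -0.96, short of 2-fold.

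SMAD6, the inhibitory SMAD of the BMP branch, was at 0.48, -0.06 and 1.48 in P1 ACM and 0.74, 0.43 and 0.25 in P1 DMEM, which is the widest spread within a group for this gene (SD 0.78 against 0.25). It was at 0.35, 0.49 and 0.95 in P3 ACM and 0.62, 1.09 and 0.89 in P3 DMEM. The groups overlapped in both passages, and the differences were 0.16 ± 0.34 (SE) and -0.27 ± 0.34.

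**Figure D2:**
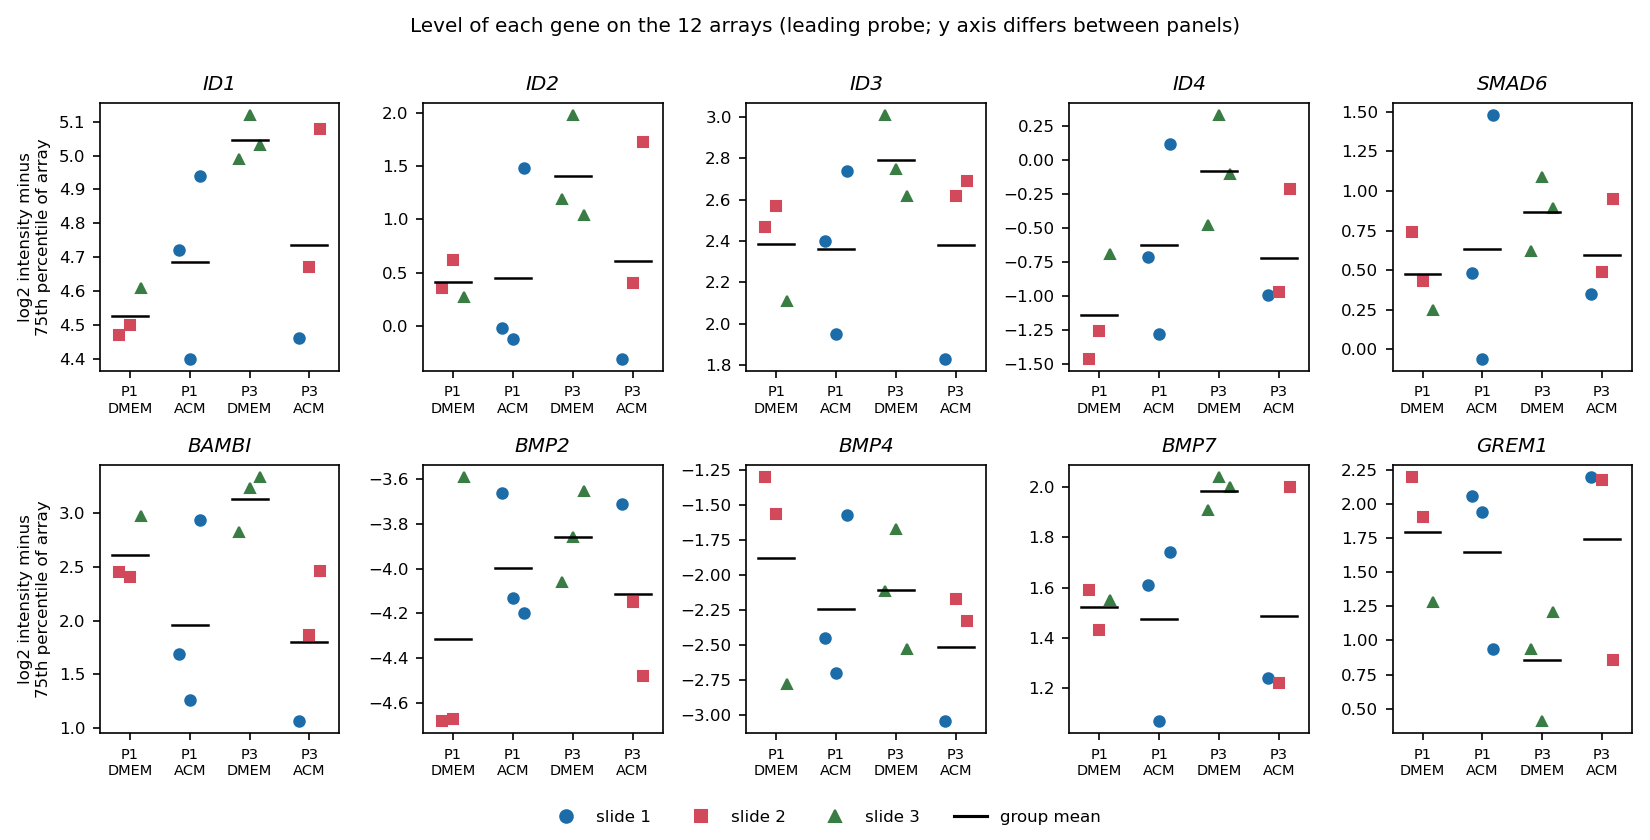
Level of each gene (y axis, log2 intensity relative to the 75th percentile of its array, a scale of its own in each panel) on the 12 arrays by group, with slide shown by colour and shape and the group mean by a line. The 3 P3 DMEM arrays of BAMBI, from 2.82 to 3.33, lie above the 3 P3 ACM arrays, and replicate 3 of ACM stands above the other ACM arrays for ID2 at both passages.

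Among the ligands, BMP2 was dim, with an intensity of 77 on its lowest array. It was at -3.66, -4.13 and -4.20 in P1 ACM, -4.68, -4.67 and -3.59 in P1 DMEM, -3.71, -4.15 and -4.48 in P3 ACM and -4.06, -3.86 and -3.65 in P3 DMEM. The 4 arrays of slide 2 ran from -4.68 to -4.15 and those of slide 3 from -4.06 to -3.59, so the wide spread of P1 DMEM lay between slides. That slide also had the lowest share of probes well above background, and the part of this in the BMP2 levels was not tested. The differences between the media were 0.32 ± 0.31 (SE) at P1, which turned to -0.27 after quantile normalization and to -0.15 with normexp before it, and -0.26 ± 0.31 at P3.

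BMP4, which patterns the dorsal neural tube with BMP7, was at -2.45, -2.70 and -1.57 in P1 ACM, -1.30, -1.56 and -2.78 in P1 DMEM, -3.04, -2.17 and -2.33 in P3 ACM and -2.11, -1.67 and -2.53 in P3 DMEM. Its mean was lower in ACM by -0.36 at P1 (95% interval -1.31 to 0.58) and -0.41 at P3 (-1.36 to 0.53). With slide as a fixed block the P3 difference was -1.51, past the thresholds at an unadjusted p of 0.0266 in limma, while the normalized table gave 1.07 at P1 (unadjusted p = 0.0279) and 0.38 at P3. On slide 2 both P1 DMEM arrays were above both P3 ACM arrays, with means of -1.43 and -2.25. This gap is a part of the fixed-block value and not a separate check.

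BMP7 was at 1.61, 1.07 and 1.74 in P1 ACM, 1.59, 1.43 and 1.55 in P1 DMEM, 1.24, 1.22 and 2.00 in P3 ACM and 1.91, 2.04 and 2.00 in P3 DMEM. As with ID1, the P3 DMEM arrays were tight (1.98 ± 0.07, SD, n = 3), P3 ACM replicate 3 lay with them, and the other P3 ACM arrays lay below. The P3 difference was -0.50 (95% interval -1.02 to 0.02). The 3 probes of BMP7 disagreed at P1, where the leading probe gave -0.05 and the others 0.62 (A_23_P154643, limma's unadjusted p of 0.042, adjusted p of 0.198) and 0.17, whereas all 3 were lower in ACM at P3, the others by -0.24 and -0.22. For the difference between passages A_23_P154643 gave -0.86 with limma's unadjusted p of 0.0446 and an adjusted p of 0.633.

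GREM1, the secreted antagonist, ran opposite to most of the other members. It was at 2.06, 1.94 and 0.94 in P1 ACM and 2.20, 1.91 and 1.28 in P1 DMEM, and at 2.20, 2.18 and 0.86 in P3 ACM and 0.94, 0.41 and 1.21 in P3 DMEM. Replicate 3 was the lowest array of its group in P1 ACM, P1 DMEM and P3 ACM, and P3 ACM replicate 3 lay within the range of P3 DMEM. The difference was -0.15 (95% interval -1.09 to 0.79) at P1 and 0.89 (-0.04 to 1.83) at P3, a 1.86-fold higher mean in ACM that did not pass the thresholds, with limma's unadjusted p of 0.06 and an adjusted p of 0.703. Without P3 ACM replicate 3 it was 1.34, past them at an unadjusted p of 0.00584, and with slide as a fixed block it was -0.11, and -1.09 at P1. The second GREM1 probe gave -0.09 and 1.11.

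Leaving out P3 ACM replicate 3 brought the members past the thresholds at P3 from 1 to 3 (ID2, BAMBI and GREM1), and leaving out P3 ACM replicate 1 brought them to 0. Over all genes these counts were 1251 and 1037, against 436 with all arrays. At P1, BAMBI passed without P1 ACM replicate 3.

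The DMEM groups differed between passages as well. The mean of 8 of the 10 members was highest in P3 DMEM, a count for which the share over all genes was not computed. Of the 10 members, 2 (BMP4 and GREM1) were lower in P3 DMEM than in P1 DMEM, beside 41.3% of all genes. For 6 of them, ID1, ID2, ID3, ID4, BMP7 and GREM1, the P3 and P1 DMEM arrays did not overlap, beside 19.0% of all genes, with GREM1 lower and the other 5 higher at P3. The remaining BMP7 probes overlapped (0.11 and -0.12), and the mean of its probes gave 0.15 against 0.46 for the leading probe. The unadjusted p was reached by 3 (ID1, ID4 and GREM1), beside 8.12% of all genes. ID4 was past both thresholds, 2.08-fold higher (1.05 ± 0.38, SE), beside 1.72% of all genes, with an adjusted p of 0.571 in limma. ID1 was 1.43-fold higher, ID2 was 1.98-fold higher without passing and GREM1 was 1.92-fold lower. None of the 25270 genes (0) passed an adjusted p of 0.05, and 2053 reached the unadjusted p. In the normalized table as it is labelled, the difference was 0.08 for ID4, 0.15 for ID1, 0.11 for ID2 and 0.21 for GREM1. ID1 was at 0.28 (unadjusted p = 0.153 in limma) after quantile normalization, and with slide as a fixed block ID4 was at 0.61 (0.266) and GREM1 at -0.43 (0.462). This comparison shares the P3 DMEM arrays with that of the media at P3, so the 2 are not independent. With slide as a fixed block, this comparison is the same as that within slide 3, which holds 1 P1 DMEM array. There the mean of the 3 P3 DMEM arrays exceeded that array by 0.44 for ID1, 1.13 for ID2 and 0.69 for ID3. The excess was 0.61 for ID4 and 0.43 for BMP7, and the mean was below that array by -0.43 for GREM1. In ACM the differences of the leading probes between P3 and P1 ran from -0.27 for BMP4 to 0.16 for ID2, with adjusted p from 0.867 to 0.992 in limma. The remaining BMP7 probes gave -0.74 (A_23_P154643, limma's unadjusted p of 0.018, adjusted p of 0.371) and -0.51, both with overlap.

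Most members went up and down together from array to array, whatever the medium. In 5 arrays, P1 ACM replicate 3, P3 ACM replicate 3 and the 3 of P3 DMEM, all 7 of ID1, ID2, ID3, ID4, SMAD6, BAMBI and BMP7 were above their own median over the 12 arrays, and GREM1 was below its median. In the other 7 arrays at most 2 of these 7 genes were above. A gene lies above its median on as many arrays as below it, so this low count follows largely from the first. The 7 were picked after their values were seen. ID2 shows the gap between the arrays most plainly, since 7 arrays ran from -0.31 to 0.62 and 5 from 1.04 to 1.98. Because the arrays fell into such clusters, no correlation over all 12 is given for pairs of members. Among the 7 arrays of lower ID2, the Pearson r of the 21 pairs of these genes ran from -0.24 to 0.83 and that of the 7 with GREM1 from -0.62 to 0.43, as a description of arrays whose range was narrowed by choosing them on ID2. With the group means removed over all 12 arrays, the pairs ran from 0.37 to 0.93 and those with GREM1 from -0.86 to -0.38. Replicate 3 of P1 ACM and of P3 ACM stood apart within their own groups, so removing the group means keeps the clusters. These values are a description too, of genes picked on this pattern, with no share over all genes beside them.

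Over the whole array, only the first principal component is given. Of the 5 arrays above, P3 ACM replicate 3 and the 3 of P3 DMEM had its highest scores. P1 ACM replicate 3 did not lie with them. That component, of 20093 genes, held 46.0% of the variance. Its highest scores were those of P3 DMEM replicates 2 and 3 and P3 ACM replicate 3, up to 65.4. P3 DMEM replicate 1 (12.3) lay near P1 DMEM replicate 3 (7.8). P1 ACM replicate 3 (-14.2) lay within the range of the other arrays, above the rest of its group (-45.6 and -54.3). ID2 and BAMBI followed it (r of 0.84 and 0.81 over the 12 arrays), at or above 0.8 in size, as were 22.4% of all genes. BMP7 (0.79), ID1 (0.75), ID3 (0.68), ID4 (0.61) and SMAD6 (0.57) followed it too, and GREM1 ran against it (-0.74). BMP2 (-0.14) and BMP4 (0.38) followed it least, beside a median size of 0.6 over all genes. These values come from arrays that share slides and normalization. Whether cells, RNA or hybridisation set the component was not tested.

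**Figure D3:**
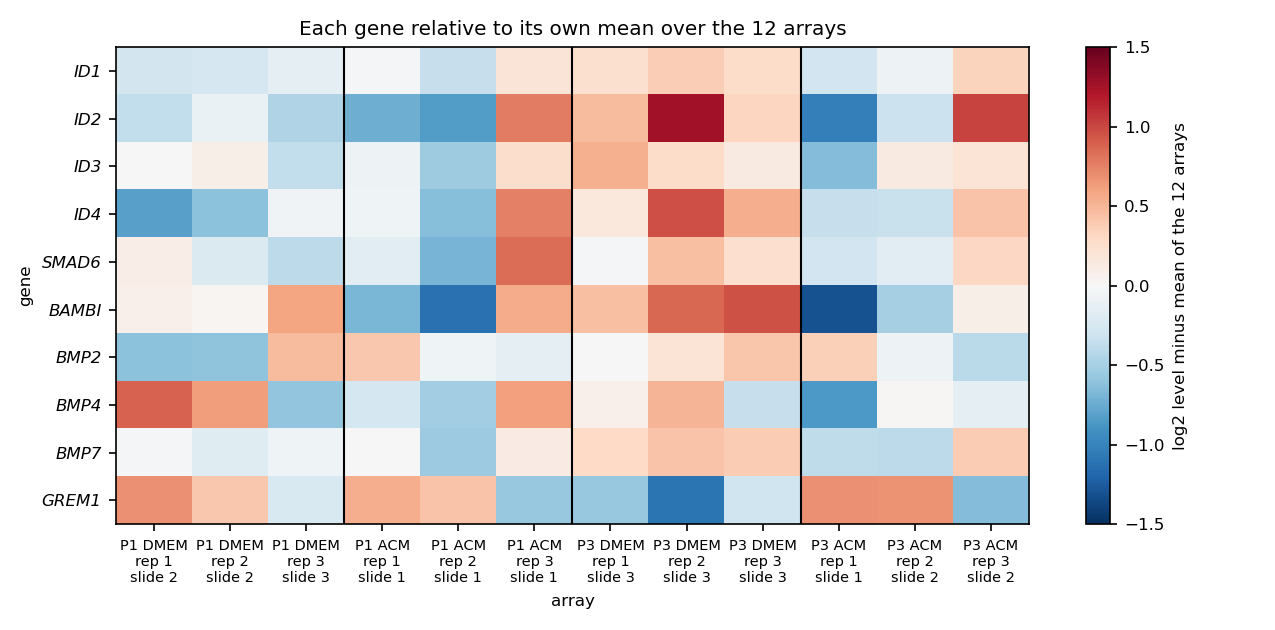
Level of each gene (rows) on each array (columns, by group and with the slide named) minus the mean of that gene over the 12 arrays, as colour on the log2 scale. Warm colours fill the ID genes, SMAD6, BAMBI and BMP7 in the P3 DMEM arrays and in replicate 3 of P1 ACM and of P3 ACM, apart from SMAD6 in P3 DMEM replicate 1, and GREM1 is cool in these 5.

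**Figure D4:**
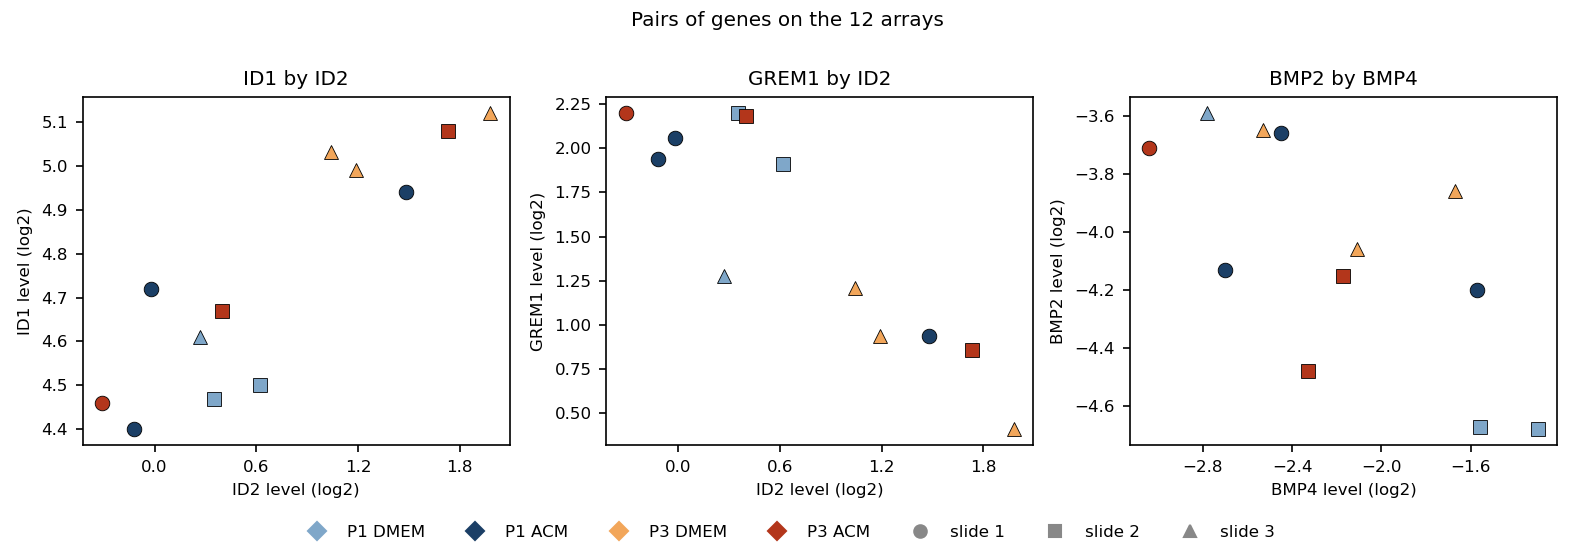
Pairs of genes on the 12 arrays (axes: log2 level), with group as colour and slide as shape: ID1 by ID2, GREM1 by ID2 and BMP2 by BMP4. The 5 arrays with ID2 from 1.04 upwards have ID1 at 4.94 or more and GREM1 at 1.21 or less, and the P1 DMEM arrays of slide 2 have the lowest BMP2 and the highest BMP4.

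The genes whose level was most like that of ID1 over the 12 arrays, of 20092 genes well above background on all of them, were BOC (r = 0.975), EMX2OS (0.963), CXXC4 (0.960), PDE4B (0.953) and HOXC13 (0.945). BOC encodes a co-receptor of hedgehog ligands, CXXC4 an inhibitor of Wnt signalling and PDE4B a cyclic AMP phosphodiesterase. With the group means removed their r with ID1 ran from 0.909 to 0.966. These are descriptions over arrays in the clusters above, and none of the 10 members was among the 5.

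The rest of the pathway was read from lists of 58 genes, of which 57 had a probe and 55 passed the filter. At P1, 5 of the 55 were past the thresholds, beside 13.6% of all genes, all higher in ACM, and the median was 0.25 beside 0.15 over all genes. At P3 none (0) was, in limma, beside 1.73% of all genes, with a median of -0.02 beside 0.00. At P1 the calls were 3 of 10 other BMP and GDF ligands (GDF2, BMP8A and BMP15, the last outside the rule for names) and 2 of 17 antagonists and modulators (HJV, a BMP co-receptor, and CHRDL2, a chordin-like antagonist). HJV was higher in ACM by 2.28 ± 0.69 (SE), CHRDL2 by 1.61 ± 0.47, BMP8A by 1.58 ± 0.53 and GDF2 by 1.51 ± 0.43, with adjusted p from 0.103 to 0.115 in limma. HJV and CHRDL2 were each well above background on 1 of the 3 P1 DMEM arrays, and GDF2, BMP8A and BMP15 on 2. After quantile normalization only HJV of the 5 stayed past the thresholds, with normexp before it none did (0 of 55), and 0 of the 45 genes detected on all 12 arrays did. With slide as a random block 0 passed, with slide as a fixed block 1 higher and 1 lower (RGMA and HJV), with 28 of 55 lower, and 0 passed in the normalized table, with 32 of 55 lower and a median of -0.04.

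None (0) of 8 BMP receptors and 0 of 5 SMADs was past the thresholds at either passage. BMPR1B, a type I receptor, was higher in ACM by 1.25 ± 0.61 (SE) at P1, without overlap. At P1 it was past the thresholds in the methods' t-test and with only the arrays compared. At P3 BMPR1B was lower in ACM, by -1.01 ± 0.61, with overlap. It was well above background on only 1 of the 3 P1 DMEM arrays and 1 of the 3 P3 ACM arrays. ACVRL1, another type I receptor, was past the thresholds at P3 in the normalized table. SMAD9 was higher in ACM at P1 by 0.74 ± 0.22 (SE, limma's unadjusted p of 0.00648, adjusted p of 0.103), short of 2-fold and without overlap, and by 0.37 ± 0.22 at P3. These 3 were named after their values were seen. BMPR1A, also of type I, differed by -0.29 ± 0.26 (SE) at P1 and -0.33 ± 0.26 at P3, and BMPR2, the type II receptor, by -0.12 ± 0.20 and -0.02 ± 0.20. SMAD1 differed by 0.00 ± 0.40 and 0.27 ± 0.40, SMAD5 by 0.03 ± 0.25 and 0.19 ± 0.25, and SMAD7, the inhibitory SMAD shared with the TGF-beta branch, by -0.06 ± 0.22 and 0.22 ± 0.22. The antagonist NOG differed by 0.84 ± 0.61 and -0.14 ± 0.61, and FST, which binds activins and some BMPs, by 0.02 ± 0.66 and -0.26 ± 0.66. Of 6 intracellular regulators, 6 other reported BMP targets and 3 E proteins, the partners of ID proteins, 0 passed at P1 and 0 at P3. The median of the 8 receptors at P1 was 0.07 and turned to -0.25 after quantile normalization, and that of the 5 SMADs was 0.00 and turned to -0.08. At P3 all 5 SMADs had a higher mean in ACM (median 0.25), 5 after quantile normalization too (0.22) and 3 with slide as a fixed block, but 0 in the normalized table as it is labelled (-0.23).

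**Figure D5:**
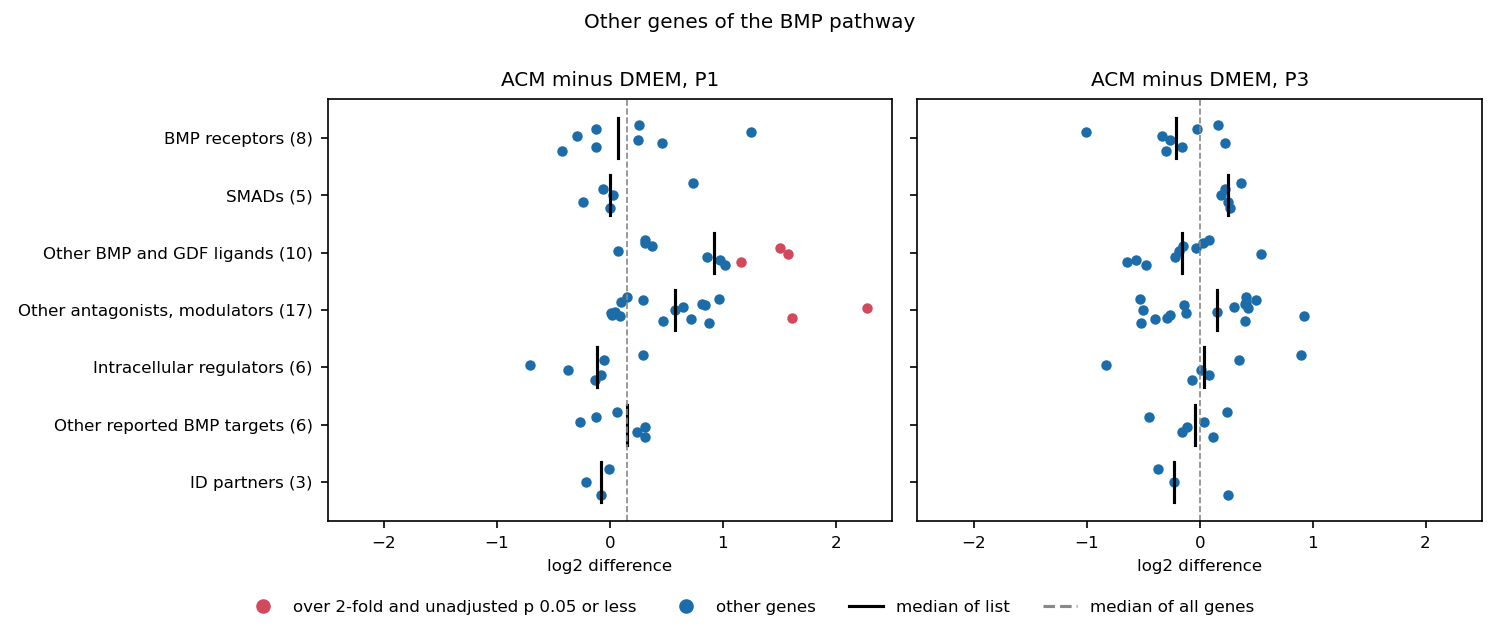
The log2 difference between ACM and DMEM (x axis) of each gene in the lists of the BMP pathway (y axis, number of genes that passed the filter in brackets) at P1 and P3, with the median of each list and of all genes. Red points are genes past the thresholds, 5 at P1 and 0 at P3.

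Astrocyte markers were measured because the medium came from astrocytes. Of 8, 7 passed the filter, and GFAP did not. ALDH1L1 and S100B were past the thresholds at P1, higher in ACM, and AQP4 was past them in both passages, lower in ACM, which is 3 of 7 at P1 beside 13.6% of all genes and 1 of 7 at P3 beside 1.73%. At P1 AQP4 was not past them with the replicate block, either slide block, the mean of the probes or the methods' t-test, and ALDH1L1 and S100B were not with normexp, slide as a fixed block or in the normalized table. At P3 AQP4 was not with the mean of the probes or in the normalized table. S100B was on none (0) of the P1 DMEM arrays well above background. Of 8 granule lineage genes 6 passed the filter, ATOH1 and NEUROD1 did not, and 0 were past the thresholds in either passage.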

How the data were processed

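RNA of 12 Daoy cultures was read on single-colour Agilent whole human genome arrays. Groups and replicate numbers came from the titles, and no source ties a number to a common day. The scanner output that the authors deposited holds, per the file headers, 1 background-corrected intensity per spot, not normalized between arrays (Agilent Feature Extraction 11.0.1.1, per the submitters' processing notes). A second file, deposited as normalized log2 values of 30569 probes, matched log2 of quantile-normalized intensity (median absolute difference 0.00049) when columns were compared with the array of the same ranks. Its method is not given in the sources used here.

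Control spots (1377 of 44495) and outlier spots were left out, and spots of a probe were averaged. Each array was scaled by its 75th percentile. Kept were 31073 of 34127 probes, those detected above background on all arrays of at least 1 group. Accessions gave symbols to 75.5% of probes through the RefSeq table of GRCh38.p14. All kept probes entered 1 fit of limma 3.58.1 (R 4.3.3, lmFit and eBayes, two-sided, 8 residual degrees of freedom) with Benjamini-Hochberg adjustment. The procedure was tested on simulated data with independent noise, its spread held at or below the median, and no slide effect. That test does not cover the slides of these arrays. The brightest probe was that of the highest mean level. Named were the 10 members, at most 4 pathway genes per passage with the smallest p past the thresholds, 7 pathway genes whatever they did, and the 5 genes most like ID1. The members and lists were chosen with earlier results of these data known. The number of arrays limits the precision, and p-values measure the spread between arrays of 1 cell line. In P3 ACM and P1 DMEM this spread holds differences between slides as well as cultures, since the fit has no slide term.

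Deviations from the group means of ACM and DMEM samples that share a number had correlations of 0.43, 0.19 and 0.27 at P1. At P3 the correlations were 0.23, -0.19 and 0.06. The main fit was unpaired, and the replicate number entered as a block only as an alternative. Alternatives were quantile normalization, normexp (offset 50, median signal) before it, other filters, only the arrays compared, the replicate block, slide as a fixed or random block (correlation 0.36), the mean of a gene's probes, the normalized table, the methods' t-test and each array left out. Figures were drawn with matplotlib 3.10.9.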

Additional observations from a re-analysis of the deposited data

How the results depend on the processing

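At P1, 0 members were past the thresholds, and 1 (BMP4) was in the normalized table as labelled. At P3 the count of 1 became 0 with slide as a random block and 0 in the table, and with slide as a fixed block it was 1 again, but BMP4 in place of BAMBI. For the difference between passages the count of 0 at an unadjusted p of 0.05 became 1 (ID4) with normexp, 1 (ID4) among probes detected on all arrays, 1 (ID4) with the replicate block, 2 (ID3 and BMP4) with the slide block and 1 (BMP2) in the table. Between the DMEM groups the count of 1 became 0 with normexp, 0 with the fixed and 0 with the random slide block, and 0 in the table. Leaving out 1 array gave 0 to 1 at P1 (2428 to 4020 of all genes), 0 to 3 at P3 (297 to 1251), 0 to 4 for the difference between passages (968 to 6136) and 0 to 2 between the DMEM groups (144 to 994). Over all genes the P1 count of 3439 became 1135 with quantile normalization, 217 with normexp, 911 among probes detected on all arrays, 530 and 420 with the fixed and random slide block and 374 in the table. The P3 count of 436 became 157 with normexp, 250 among probes detected on all arrays, 1213 with no filter, 682 and 261 with the slide blocks, 171 in the methods' t-test and 1513 in the table. The 2086 genes at that p for the difference between passages became 894 with normexp, 775 among probes detected on all arrays, 2036 with the replicate block, 978 with the fixed slide block and 1091 in the table. The 435 between the DMEM groups became 139 with normexp, 494 and 345 with the slide blocks and 141 in the table.

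Of 30 member values, the replicate block changed no direction and no call at both thresholds (BAMBI at P3 stayed at -1.33), and quantile normalization turned 3. The table turned 22 and the fixed slide block 8. The columns of the table match quantile-normalized intensity of arrays with other labels, so the table differs from the quantile setting in its labels. The cause was not tested. At P1 the table gave -0.03 for ID1, 0.23 for ID3, -0.19 for ID4, 0.12 for BAMBI, -0.47 for BMP2, 1.07 for BMP4, 0.07 for BMP7 and 0.13 for GREM1. At P3 it gave 0.60 for ID2, 0.14 for ID3, 0.42 for ID4, 0.12 for SMAD6, 0.68 for BAMBI, 0.68 for BMP2, 0.38 for BMP4, 0.15 for BMP7 and -0.46 for GREM1. Between the DMEM groups it gave -0.26 for BAMBI, -0.53 for BMP2, 0.32 for BMP4, -0.04 for BMP7 and 0.21 for GREM1. The fixed slide block gave 0.67 for ID3, 0.62 for BAMBI and 0.33 for BMP7 at P1, 0.17 for ID4, 0.62 for BMP2 and -0.11 for GREM1 at P3, and -0.26 for BMP2 and 0.68 for BMP4 between the DMEM groups. The random slide block gave 0.28 for ID3 and 0.08 for BMP7 at P1, 0.13 for BMP2 at P3 and 0.21 for BMP4 between the DMEM groups. At P1 quantile normalization gave 0.07 for ID3, -0.27 for BMP2 and 0.02 for BMP7, normexp gave 0.17 for ID3 and -0.15 for BMP2, and the mean of the probes gave 0.25 for BMP7. With 1 array left out, the sign turned at P1 for ID2 (-0.48 to 0.32), ID3 (-0.21 to 0.19), SMAD6 (-0.26 to 0.51), BMP7 (-0.18 to 0.15) and GREM1 (-0.41 to 0.20), and between the DMEM groups for BMP4 (-0.68 to 0.07). No member turned at P3.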
